A study of Homo sapiens with 10 samples.

Results

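The genes described here were the snoRNA host genes with a numbered SNHG name together with 7 other abundant long noncoding RNAs, namely GAS5, ZFAS1, DANCR, TUG1, NEAT1, MALAT1 and NORAD. They were taken by gene symbol alone, and 30 of the 34567 genes in the count table matched, 23 of them with an SNHG number. The RNA came from a pair of human glioma cell lines in which the homeobox transcription factor MEOX2 was changed in opposite directions. SNB19 cells received Scramble siRNA (NC, n = 3) or MEOX2 siRNA (siMEOX2, n = 3) by lipofection. U87 cells received empty vector lentivirus (EV, n = 2) or MEOX2 overexpression lentivirus (OE, n = 2) with polybrene, and the study's methods describe the U87 cells as stable overexpression lines. All cells were grown in DMEM with fetal bovine serum, and which of the study's MEOX2 siRNAs was used for sequencing is not given in the sources used here. Libraries were made from poly-T selected RNA with a kit that does not mark strand. Nothing says that replicates were separate cultures, so the p-values measure only the spread between these libraries, which may be technical.

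Small nucleolar RNAs guide chemical modification of ribosomal and spliceosomal RNA, and most human ones are cut out of the introns of a longer host transcript. In the SNHG genes the spliced host transcript usually has no long open reading frame, and many such transcripts are removed by nonsense-mediated decay when they are translated. Many hosts, like ribosomal protein genes, start transcription at a run of pyrimidines, the 5′ terminal oligopyrimidine tract that couples translation to growth signals. GAS5, ZFAS1 and DANCR are hosts of the same kind. NEAT1 is the scaffold of paraspeckles, MALAT1 is a nuclear speckle RNA, NORAD binds the Pumilio proteins, and TUG1 is studied mostly in development and cancer. In GENCODE release 29, 25 of the 30 members contained 136 annotated small nucleolar or Cajal body RNA genes, 84 of them in SNHG14, and none was listed within GAS5, NEAT1, MALAT1, TUG1 or NORAD. In bulk RNA such as this, fewer cells of a type and less RNA per cell cannot be told apart.

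The first transcribed bases are shown for 8 of the 10 members that passed the test in one of the MEOX2 comparisons, since these are the transcripts the results turn on. The other two are NEAT1 and SNHG6. Each line gives the 30 bases from 10 before to 20 from the RefSeq start on GRCh38.p14, read 5′ to 3′ on the gene's strand, and capitals mark a C followed by at least 5 letters that are each C or T.
SNHG4 (chr5:139274091-139274120, plus strand): ctcccggctgCCCTTTCCCCTCCggcctct
SNHG1 (chr11:62855866-62855895, minus strand): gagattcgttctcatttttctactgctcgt
SNHG10 (chr14:95534853-95534882, minus strand): cttatgccggagcctcatcctactgcctta
MALAT1 (chr11:65497728-65497757, plus strand): CTCTCCCCTCCgcagcctgcagcccgagac
MALAT1 (chr11:65499035-65499064, plus strand): gctgtgcggtaggcattgaggcagccagcg
SNHG12 (chr1:28581854-28581883, minus strand): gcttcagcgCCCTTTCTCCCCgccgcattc
SNHG19 (chr16:2155339-2155368, minus strand): ccgcccctgtCTTTTCggggtcgagtccga
SNHG18 (chr5:9546190-9546219, plus strand): gccgcgccgCCTCCTCCTCCTCCTCCTCCC
NORAD (chr20:36050941-36050970, minus strand): ctgccaagtcagttccggtccggcagagat
SNHG4, SNHG12, SNHG18 and SNHG19 had such a run at the annotated start or 1 base before it, while SNHG1, SNHG10 and NORAD had none in this window. RefSeq windows were found for 25 of the 30 members (26 windows, MALAT1 having a pair). Of the 26, 10 held the run at any position, or 38.5%, against 23.5% of 35116 promoters of all genes and 55.3% of 38 promoters of protein-coding snoRNA hosts. That is not the share with a run at the start, since in MALAT1 and SNHG7 it began 10 bases before. TAATTA, a core that homeodomain proteins can bind and that reads the same on both strands, was searched in the 300 bases around each start. It was found in 1 of the 26 member promoters, that of SNHG10, and in 4.84% of all promoters.

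The libraries held between 12533775 and 16560324 counts. MEOX2 itself followed the labels: its counts were 249, 224 and 275 in the NC libraries and 54, 40 and 49 in the siMEOX2 libraries, a log2 fold change of -2.42 ± 0.14 (SE) with an adjusted p of 9.10e-05 by edgeR's quasi-likelihood test. In U87, MEOX2 had 0 counts in both EV libraries, and 4999 and 5308 in the OE libraries, which is at least 1784-fold higher by FPKM against the higher of the EV libraries' floors of 3 counts. Glioma markers were partly in place. VIM, an intermediate filament gene of glioma cells, was at 160.2, 160.2 and 163 FPKM in NC and at 687 and 241 FPKM in EV, but the astrocyte gene GFAP stayed at or below 0.40 FPKM in every library, and S100B had 0 counts in all 4 U87 libraries. SOX2, a neural stem cell factor, was at 12.7, 14.4 and 12.4 FPKM in NC and had between 0 and 3 counts in the U87 libraries.

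EV replicate 1 stood apart from the other libraries. Its log2 CPM correlated with those of EV replicate 2 across genes at r = 0.896, against 0.994 or more for the other replicate pairs. By the gene lengths that the deposited FPKM values imply, genes shorter than 1000 bp took 5.38% of its counts, against 2.63% in EV replicate 2, and genes longer than 5000 bp took 37.2% against 54.9%. The median log2 ratio of replicate 1 over replicate 2 went from 1.68 for genes under 500 bp to -1.35 for genes of 16000 bp or more. The members varied with length in part: the ratio was 2.17 for SNHG19 and 1.48 for SNHG8, which are short, and -1.34 for NORAD, -1.89 for TUG1 and -2.33 for SNHG14, which are long. Of the 28 members with a count in both EV libraries, 15 were shorter than 4000 bp, of which 13 were higher in EV replicate 1, and 8 were longer than 5000 bp, of which 7 were lower in it. Against the median of all genes in their length bin, 14 of the 28 members lay above by more than 0.5 and 8 below by more than 0.5, where 28.8% and 26.7% of 12070 genes did so. The gap was largest upward for SNHG5 (1.68), ZFAS1 (1.57), SNHG7 (1.51) and SNHG17 (1.38), and downward for SNHG28 (-2.51), SNHG21 (-1.62) and SNHG26 (-1.21), which had at most 21 counts in an EV library. Because all 10 libraries shared 1 estimate of the spread, this library bears on every comparison, SNB19 included, and counts are given with and without it, as are values whose call or size it changed. Without it the EV group is a single library that is assumed to vary like the other groups.

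Levels are compared between genes as FPKM, which is per length. Each gene has 1 implied length, such as 22767 bp for NEAT1, so a gene read mostly from a shorter form has its level understated. Over the 10 libraries 16 of the 30 members had a mean FPKM of at least 10, and 5 had a mean below 1. Over all 10 libraries SNHG8 had the highest mean, with 40.5, 51.0 and 45.7 FPKM in NC, 64.8, 60.6 and 65.3 in siMEOX2, 213 and 76.1 in EV and 115 and 129.6 in OE. Its U87 libraries were all above its SNB19 libraries, and EV replicate 1 was the highest of all. SNHG19, host of SNORD60, had 91.3, 85.3 and 84.2 FPKM in NC, 105, 95.0 and 115 in siMEOX2, 145 and 32.2 in EV and 20.3 and 30.2 in OE. Its U87 values lay below its SNB19 values except in EV replicate 1. NORAD came next by mean, followed by DANCR and GAS5. The means of these 3 neighbours, 70.2, 58.8 and 56.4 FPKM, lie closer together than the spread of each one over the libraries. Without EV replicate 1, where SNHG8, SNHG19 and NORAD had 213, 145 and 27.6 FPKM, NORAD had the highest mean of all members. SNHG8 then came after SNHG19. The lowest members were SNHG14, SNHG25, SNHG28, SNHG26 and SNHG22. SNHG14, the long host of the SNORD115 and SNORD116 arrays in the imprinted Prader-Willi region, lay between 0.157 and 0.790 FPKM. SNHG22 had a count in 1 library only.

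**Figure D1:**
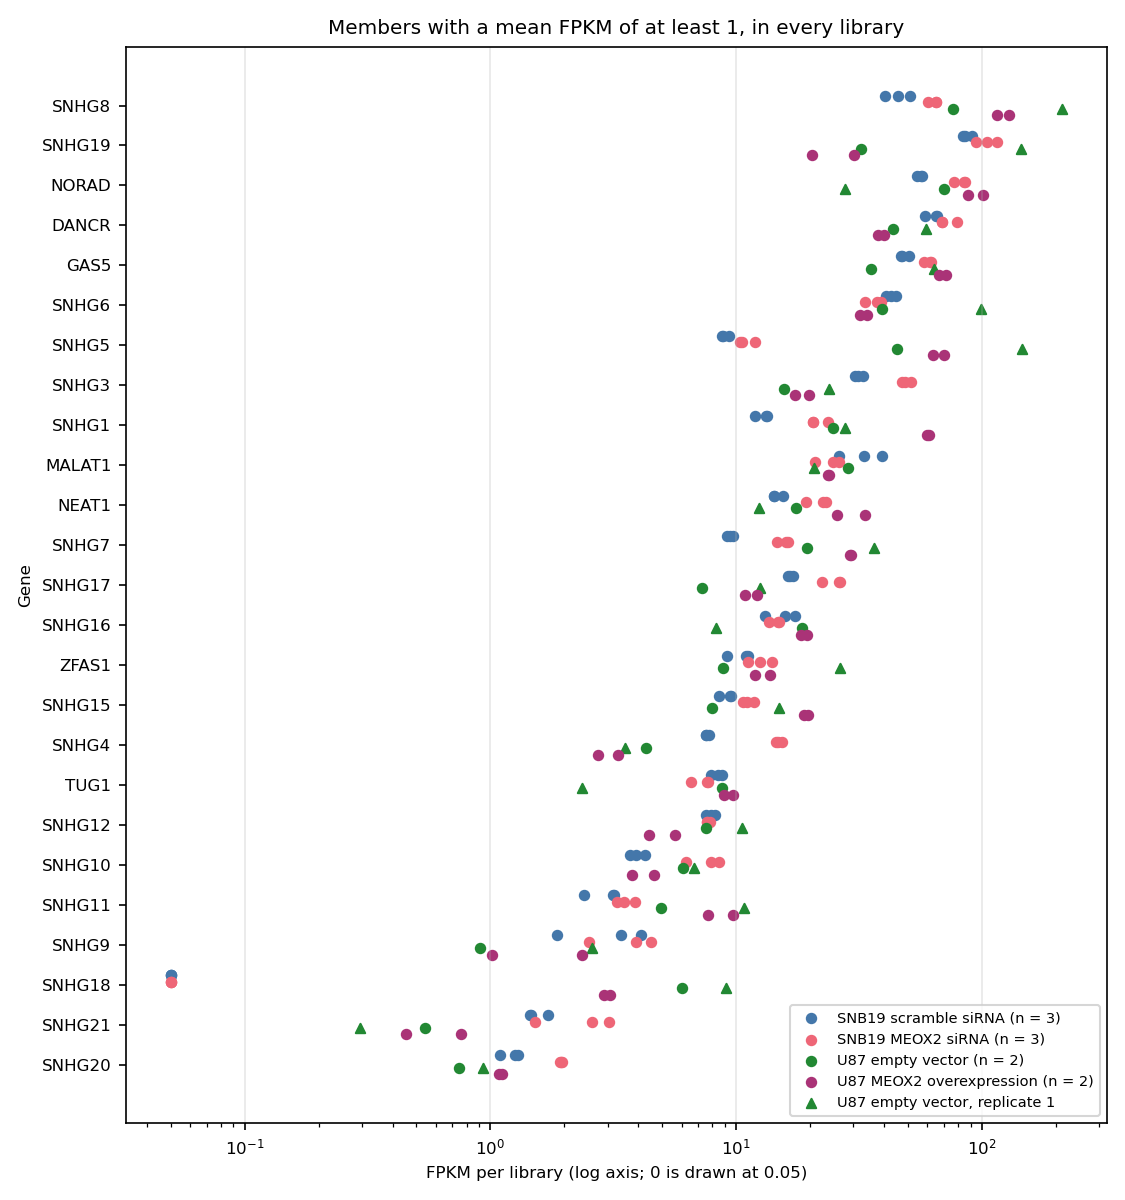
FPKM in every library (horizontal, log axis) for the 25 members with a mean of at least 1, ordered by mean. Colours mark the 4 groups and triangles mark EV replicate 1, which lies to the right for members such as SNHG8 and SNHG5 and to the left for TUG1 and NORAD. SNHG18 is at 0 in all 6 SNB19 libraries.

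The summed FPKM of the 30 members, for which no test was made, was 525, 548 and 555 in the NC libraries and 682, 666 and 684 in the siMEOX2 libraries, with no overlap. In U87 it was 985 and 532 in EV and 704 and 720.5 in OE, so the OE libraries lay between the EV libraries. Their share of all counts was 0.203% ± 0.0099 (SD, n = 3) in NC, 0.255% ± 0.0071 (SD, n = 3) in siMEOX2, 0.232% ± 0.0241 (SD, n = 2) in EV and 0.297% ± 0.0146 (SD, n = 2) in OE. By this share, the OE libraries were both above the EV libraries.

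The first comparison asked which members changed when MEOX2 was silenced in SNB19. SNHG4, SNHG1, SNHG10 and NEAT1 were higher in siMEOX2 and MALAT1 was lower, by edgeR's quasi-likelihood test with a Benjamini-Hochberg adjusted p under 0.05 over all 17312 genes tested. These were 5 of the 27 members that passed the filter on low counts, and 15.7% of all genes tested passed the same threshold. By direction, 4 of 27 were higher, with 6.99% of all genes, and 1 was lower, with 8.75%. This split depended on the scaling: with upper-quartile factors 4 members were higher and 0 lower (1516 and 1230 of all genes), and with library totals 6 were higher and 0 lower (1310 and 987), so that MALAT1 was called lower with TMM factors and not with these. The median log2 fold change of the 26 members with a fold was 0.20, against -0.0013 for all genes. SNHG22, SNHG25 and SNHG26 did not pass the filter, and SNHG18, which passed it through U87, had 0 counts in all SNB19 libraries and gives no fold there.

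SNHG4 hosts SNORA74 snoRNAs and lies on chromosome 5 (GRCh38, chr5:139274102-139284899, plus strand). It had 7.80, 7.52 and 7.53 FPKM in NC and 14.8, 14.6 and 15.4 FPKM in siMEOX2, with a wide gap between the groups. Its log2 fold change was 0.88 ± 0.11 (SE, adjusted p = 0.00144), and it passed the threshold in all 7 fits that left out 1 library. SNHG1, host of SNORD22, SNORD25, SNORD26, SNORD27, SNORD28 and SNORD30 (chr11:62851988-62855914, minus strand), had 13.2, 11.9 and 13.4 FPKM in NC and 20.7, 23.7 and 20.6 FPKM in siMEOX2. The groups did not overlap, with a log2 fold change of 0.66 ± 0.16 (SE, adjusted p = 0.0221). SNHG10 (chr14:95532297-95534872, minus strand) hosts SCARNA13, a guide RNA of Cajal bodies, and had 4.25, 3.71 and 3.91 FPKM in NC and 8.51, 6.26 and 7.92 FPKM in siMEOX2. Every siMEOX2 library was above every NC library, the log2 fold change being 0.85 ± 0.20 (SE, adjusted p = 0.0224).

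NEAT1 (chr11:65422774-65445540, plus strand) had 14.2, 14.3 and 15.5 FPKM in NC and 19.3, 22.7 and 23.2 FPKM in siMEOX2, which did not overlap. Its log2 fold change was 0.48 ± 0.13 (SE, adjusted p = 0.0360). NEAT1 makes a short polyadenylated form and a long form that ends without a poly(A) tail, so poly-T selection favours the short one, and the gene-level count does not separate them. MALAT1 (chr11:65497688-65506516, plus strand), its neighbour, also lacks a poly(A) tail when mature. It had 26.2, 33.1 and 39.3 FPKM in NC and 20.9, 24.8 and 26.2 FPKM in siMEOX2, the highest siMEOX2 library lying just below the lowest NC library. Its log2 fold change was -0.54 ± 0.15 (SE, adjusted p = 0.0411). When any one of the 6 SNB19 libraries was left out, SNHG1 and NEAT1 missed the threshold, with log2 fold changes still between 0.61 and 0.71 for SNHG1 and between 0.44 and 0.55 for NEAT1, and largest adjusted p-values of 0.0972 and 0.138. SNHG10 missed it without any one SNB19 library except siMEOX2 replicate 2, and MALAT1 without any one except NC replicate 1, with largest adjusted p-values of 0.0929 and 0.158.

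The other members of high abundance did not pass the test. NORAD (chr20:36045622-36050960, minus strand, a single exon) had 57.4, 54.4 and 56.6 FPKM in NC and 77.1, 85.1 and 84.8 FPKM in siMEOX2, without overlap, but a log2 fold change of 0.46 ± 0.20 (SE) missed the threshold (adjusted p = 0.153). DANCR, host of SNORA26, had 58.9, 66.0 and 65.1 FPKM in NC and 79.4, 69.2 and 69.1 FPKM in siMEOX2. The DANCR groups did not overlap, and the log2 fold change was 0.11 ± 0.20 (SE, adjusted p = 0.782). GAS5, a host gene named for its rise in growth-arrested cells, had 47.3, 46.7 and 50.7 FPKM in NC and 61.5, 62.3 and 58.0 FPKM in siMEOX2, again without overlap, with a log2 fold change of 0.24 ± 0.26 (SE, adjusted p = 0.607). In all, the FPKM ranges of the groups did not overlap for 16 members that were higher in siMEOX2 and 3 that were lower, of 27, where 33.7% of all genes were higher in this way and 24.2% lower. FPKM is scaled by library total, which left the median gene 0.08 higher on the log2 scale in siMEOX2.

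Without EV replicate 1 the standard errors were smaller and the fold changes in SNB19 stayed nearly as they were. Then 15 of 27 members passed the threshold, 12 higher and 3 lower, with 47.1% of all genes (22.5% higher and 24.6% lower). The added members were SNHG7 (0.64 ± 0.07 on the log2 scale, SE), SNHG20 (0.60), SNHG3 (0.56), SNHG17 (0.51), NORAD (0.47), SNHG8 (0.39), GAS5 (0.24) and SNHG15 (0.21), which were higher, and SNHG6 (-0.30) and TUG1 (-0.29), which were lower. With the 6 SNB19 libraries fitted alone, 17 of 26 members passed, 14 higher and 3 lower, with 55.9% of genes.

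**Figure D2:**
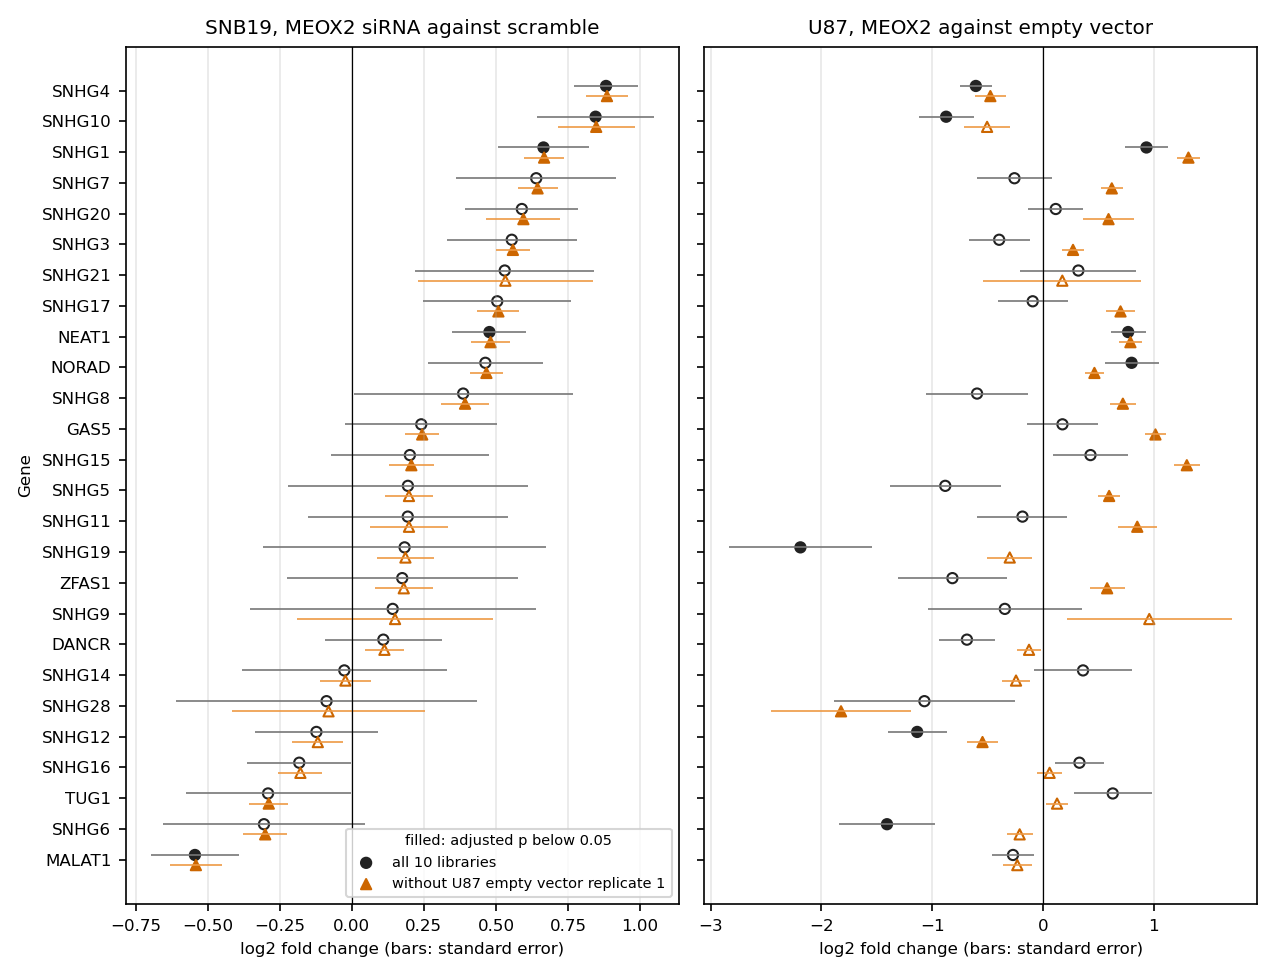
Log2 fold change and its standard error for the 26 members with a fold in both cell lines, in SNB19 (left) and U87 (right), ordered by the SNB19 value. Circles use all 10 libraries, triangles leave out EV replicate 1, and filled symbols have an adjusted p below 0.05; in SNB19 the 2 symbols lie together, while in U87 they lie apart for SNHG19, SNHG5, ZFAS1 and SNHG8.

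The next comparison asked which members changed when MEOX2 was overexpressed in U87. NEAT1, SNHG1 and NORAD were higher in OE, and SNHG12, SNHG4, SNHG10, SNHG19, SNHG18 and SNHG6 were lower. These were 9 of 27 members, where 26.2% of all genes passed, and the 3 higher and 6 lower members stand beside 11.3% and 14.9% of all genes. The median log2 fold change of the members was -0.27, and that of all genes -0.02. With library totals 2 members were higher and 3 lower, and 2022 and 1771 of all genes. The FPKM ranges of EV and OE did not overlap for 7 members that were higher in OE and 7 that were lower, with 31.9% and 20.4% of all genes. Leaving out EV replicate 1 moved both the count and the median. Then 17 of 27 passed, 13 higher and 4 lower, with 38.9% of all genes (20.4% higher and 18.4% lower), and the members' median was 0.27 against 0.05. With the 4 U87 libraries fitted alone no member and no gene passed by edgeR, where 3 of 25 members and 2643 of 14180 genes had an unadjusted p under 0.05.

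NEAT1 and SNHG1 were higher with either choice. NEAT1 had 12.4 and 17.5 FPKM in EV and 33.4 and 25.8 FPKM in OE, without overlap. Its log2 fold change was 0.77 ± 0.16 (SE, adjusted p = 0.00839) with all libraries and 0.79 without EV replicate 1, but 0.22 and past the threshold no longer when the fit allowed for gene length in each library, an alternative chosen after seeing the data. SNHG1 had 27.7 and 24.9 FPKM in EV and 59.7 and 61.2 FPKM in OE, a clear gap, with a log2 fold change of 0.94 ± 0.19 (SE, adjusted p = 0.00861) that became 1.31 without EV replicate 1. NORAD had 27.6 and 70.1 FPKM in EV and 102 and 87.7 FPKM in OE. Both NORAD OE values were above both EV values, and the log2 fold change of 0.80 ± 0.24 (SE, adjusted p = 0.0397) was 0.47 without the low EV replicate 1.

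SNHG12 and SNHG4 were lower with either choice. SNHG12, host of SNORA16A, SNORA44, SNORA61 and SNORD99 (chr1:28578538-28583132, minus strand), had 10.6 and 7.57 FPKM in EV and 4.43 and 5.62 FPKM in OE. The groups did not overlap, and the log2 fold change was -1.14 ± 0.27 (SE, adjusted p = 0.0148) with all libraries and -0.55 without EV replicate 1, a smaller fall. SNHG4 had 3.55 and 4.28 FPKM in EV and 3.30 and 2.74 FPKM in OE, which lay close but apart, with log2 fold changes of -0.61 ± 0.14 (SE, adjusted p = 0.0148) and -0.47. SNHG18, host of SNORD123 (chr5:9546200-9550609, plus strand), had 9.07 and 6.02 FPKM in EV and 3.07 and 2.91 FPKM in OE. All SNHG18 values in OE were below those in EV, with log2 fold changes of -1.63 ± 0.41 (SE, adjusted p = 0.0407) and -0.97.

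The other 3 calls were lost without EV replicate 1. SNHG10 had 6.75 and 6.07 FPKM in EV and 4.64 and 3.76 FPKM in OE, and its log2 fold change went from -0.87 ± 0.25 (SE, adjusted p = 0.0312) to -0.50. SNHG19 went from -2.19 ± 0.64 (SE, adjusted p = 0.0348) to -0.30, and its EV values differed more from each other than EV replicate 2 did from the OE libraries. SNHG6, host of SNORD87, had 99.0 and 39.3 FPKM in EV and 31.9 and 34.2 FPKM in OE, and went from -1.41 ± 0.44 (SE, adjusted p = 0.0417) to -0.21. Of the members gained without EV replicate 1, GAS5 had 63.6 and 35.3 FPKM in EV and 67.3 and 71.8 FPKM in OE, so that only EV replicate 2 was well below OE, and its log2 fold change was 0.18 with all libraries and 1.02 without that library. SNHG28, at under 0.2 FPKM in every U87 library, was then lower (-1.82), and SNHG20 was higher (0.59). SNHG15, host of SNORA9, went from 0.43 to 1.30. SNHG5, SNHG8, ZFAS1, SNHG7, SNHG11, SNHG17 and SNHG3 went from values between -0.88 and -0.09 to values between 0.27 and 0.85, so their sign in U87 changed when that library was left out. DANCR had 59.2 and 43.5 FPKM in EV and 37.8 and 40.0 FPKM in OE, both OE values being below both EV values, with a log2 fold change of -0.69 ± 0.25 (SE, adjusted p = 0.0706) that was -0.12 without EV replicate 1.

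Without OE replicate 1 only SNHG4 passed, and without OE replicate 2 only NEAT1 did. The fewest calls over all genes also came from leaving out an OE library, and that range is given under the processing. Without EV replicate 2, when EV replicate 1 alone stands for the empty vector, 21 of 27 members passed, 6 higher and 15 lower, with 59.5% of all genes (30.4% higher and 29.1% lower).

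Set side by side, SNHG1 and NEAT1 were higher both with MEOX2 silenced in SNB19 and with MEOX2 raised in U87, while SNHG4 and SNHG10 were higher with MEOX2 silenced and lower with MEOX2 raised. Of all genes 1.85% were higher in both and 0.63% were higher with MEOX2 silenced and lower with it raised. The groups compared share no library, but both comparisons used the same estimate of the spread over all 10 libraries. Without EV replicate 1, 10 members were called higher in both (GAS5, NEAT1, NORAD, SNHG1, SNHG15, SNHG17, SNHG20, SNHG3, SNHG7 and SNHG8), SNHG4 was called in opposite directions, and no member was lower with MEOX2 silenced and higher with it raised, where 6.82%, 3.33% and 4.49% of all genes did these in turn. To test whether the cell lines differed, the change from less to more MEOX2 in SNB19 (NC minus siMEOX2) was subtracted from that in U87 (OE minus EV) in the same fit. The difference passed for 5 of 27 members, with 24.4% of all genes, 3 of them higher in U87 (10.2% of genes) and 2 lower (14.2% of genes). It was 1.60 ± 0.25 on the log2 scale (SE, adjusted p = 0.00206) for SNHG1, 1.25 ± 0.20 (0.00259) for NEAT1 and 1.26 ± 0.31 (0.0188) for NORAD. For SNHG12 it was -1.26 ± 0.34 (SE, adjusted p = 0.0268) and for MALAT1 -0.81 ± 0.24 (0.0370). SNHG4, whose directions were opposite between the perturbations and hence the same with respect to MEOX2 level, had a difference of 0.28 ± 0.18 (SE, adjusted p = 0.290), and SNHG10 had -0.03 ± 0.32 (SE, adjusted p = 0.986). Leaving out EV replicate 1, the difference passed for 18 of 27 members, 14 higher in U87 and 4 lower, with 43% of all genes (21.3% higher and 21.8% lower), and all 5 called with all libraries kept their direction and passed, at 1.98 for SNHG1, 1.27 for NEAT1, 0.93 for NORAD, -0.66 for SNHG12 and -0.77 for MALAT1. The difference for SNHG4 then passed too, at 0.41 ± 0.16 (SE, adjusted p = 0.0357), and that for SNHG10 was 0.34 ± 0.24 (SE, adjusted p = 0.280).

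**Figure D3:**
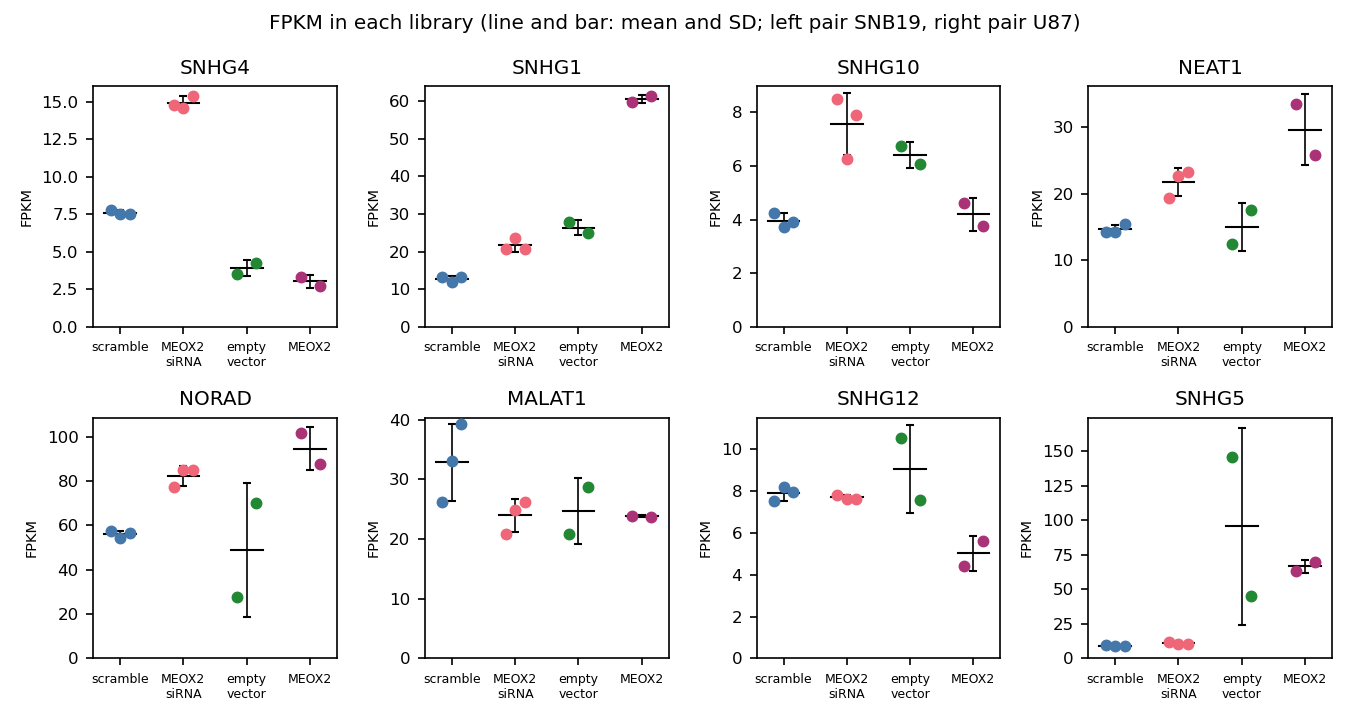
FPKM (vertical, from 0) of 8 members in each library of the 4 groups, with the mean as a line and the SD as a bar (n = 3 per SNB19 group, n = 2 per U87 group). SNHG4 is near 7.5 in NC and 15 in siMEOX2 and lowest in OE, SNHG1 is highest in OE, and the EV points of NORAD and SNHG5 lie far apart.

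The control groups were compared to describe the members at baseline. Cell line, delivery and control construct differ together between NC and EV and cannot be told apart, and EV replicate 1 is again one of a pair. SNHG18 was the most divided member, with 0 counts in all 6 SNB19 libraries and 9.07 and 6.02 FPKM in EV. Against a floor of 3 counts in the NC library with the highest floor, this is at least 67.3-fold higher in EV, and at least 53.7-fold for EV replicate 2 alone. SNHG5, host of SNORD50 snoRNAs, had 9.38, 8.78 and 8.84 FPKM in NC, 146 and 45.2 in EV and 63.3 and 70.0 in OE. Every U87 library was above every SNB19 library for SNHG5, with a log2 fold change of NC over EV of -3.91 ± 0.48 (SE, adjusted p = 0.000129) and -2.48 without EV replicate 1.

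In all, 13 of 27 members differed between NC and EV, with 56.9% of all genes, 2 higher in NC (28.1% of genes) and 11 lower (28.8%). With library totals 5 were higher and 7 lower, and 6008 and 3300 of all genes. Without EV replicate 1, 21 of 27 differed, 9 higher and 12 lower, with 63.4% of genes (32.5% higher and 30.9% lower). SNHG7, host of SNORA17 snoRNAs, had 9.16, 9.71 and 9.42 FPKM in NC, 16.3, 15.9 and 14.7 in siMEOX2, 36.6 and 19.5 in EV and 29.1 and 29.4 in OE. NC was below EV throughout, at -2.03 ± 0.30 (SE, adjusted p = 0.000466). SNHG11, with 3.18, 3.16 and 2.40 FPKM in NC and 10.8 and 4.93 FPKM in EV, was lower in NC at -1.90 ± 0.37 (SE, adjusted p = 0.00224), and its siMEOX2 values of 3.28, 3.49 and 3.89 and OE values of 9.73 and 7.72 kept the lines apart. SNHG8 and SNHG1, whose values are given above, were lower in NC at -2.15 ± 0.42 and -1.44 ± 0.17 (SE, adjusted p = 0.00209 and 0.000118). SNHG21, host of SCARNA15, was higher in NC, with 1.72, 1.45 and 1.47 FPKM against 0.294 and 0.540 in EV, 2.60, 1.52 and 3.03 in siMEOX2 and 0.758 and 0.454 in OE. This difference was 1.54 ± 0.44 on the log2 scale (SE, adjusted p = 0.0138) at levels near 1 FPKM. SNHG18, SNHG5, SNHG7, SNHG11, SNHG8, SNHG1 and SNHG21, with SNHG4 (0.59), SNHG10 (-1.09) and NEAT1 (-0.38), kept their direction and passed without EV replicate 1. Several were then smaller, at -1.20 for SNHG7, -0.91 for SNHG11, -0.89 for SNHG8, -1.11 for SNHG1 and -0.77 for SNHG10, while SNHG21 was at 1.36, SNHG4 at 0.68 and NEAT1 at -0.41. NEAT1 passed in 2 of the 5 fits that left out 1 library, with an adjusted p of up to 0.120, and in 4 of 11 other settings, and with library totals it was at -0.03 (adjusted p = 0.901).

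ZFAS1, host of SNORD12 snoRNAs, did not keep its direction. It had 9.15, 11.0 and 11.2 FPKM in NC, 12.5, 11.2 and 14.0 in siMEOX2, 26.5 and 8.85 in EV and 11.9 and 13.8 in OE, and all 3 NC libraries lay between the EV libraries. Its log2 fold change of NC over EV was -1.26 ± 0.44 (SE, adjusted p = 0.0346) with all libraries and 0.09 without EV replicate 1. SNHG6 and SNHG12 also missed the threshold without that library, at -0.04 and -0.09. SNHG19 went from -0.55 to 1.28 and then passed.

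The proteins that build snoRNPs are the partners of the small RNAs these genes host. Beside each count of such partner genes stand the shares of all genes given above, 6.99% higher and 8.75% lower with MEOX2 silenced and 11.3% and 14.9% with MEOX2 raised. Of 16 snoRNP genes, 2 were higher and 0 lower with MEOX2 silenced, with a median log2 fold change of 0.22 against -0.0013 for all genes. They were NOLC1, a nucleolar chaperone of snoRNPs, with 36.4, 37.9 and 36.2 FPKM in NC and 83.7, 88.5 and 88.7 in siMEOX2 (1.15 ± 0.12 on the log2 scale, SE, adjusted p = 0.000680), and DKC1, the pseudouridine synthase of H/ACA snoRNPs (0.49 ± 0.10, adjusted p = 0.0126). NAF1, an H/ACA assembly factor, had 0.52 ± 0.21 (adjusted p = 0.140). In U87, 4 were higher and 1 lower with MEOX2 raised, with a median of -0.07 that was 0.35 without EV replicate 1. DKC1 (1.02 ± 0.13 on the log2 scale, SE, adjusted p = 0.000773), ZNHIT6 (1.46), NAF1 (1.53) and NOP58, a core box C/D protein, rose, and RUVBL2 (-1.38), a helicase of the assembly complex, fell. Leaving out EV replicate 1, where 22.5% and 24.6% of all genes passed in SNB19 and 20.4% and 18.4% in U87, the counts were 9 higher and 0 lower in SNB19 and 9 higher and 1 lower in U87, and RUVBL2 was at -0.43.

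Protein-coding hosts, mostly ribosomal protein and translation factor genes, numbered 39. With MEOX2 silenced, 2 were higher and 3 lower, with a median of 0.01. TOMM20, a mitochondrial import receptor (0.63 ± 0.12 on the log2 scale, SE, adjusted p = 0.00785), and the mitochondrial chaperone gene HSPA9 (0.55) were higher, and the cytosolic chaperone gene HSPA8 (-0.80), EIF4A2 and CCT6A were lower. With MEOX2 raised, HSPA9 (1.10 ± 0.13, adjusted p = 0.000674) was among 2 that were higher, and HSPA8 (-1.07) and RPL4 (-1.66) among 4 that were lower. The median of the 39 in U87 was -1.03 with all libraries and 0.13 without EV replicate 1. Without that library 5 were higher and 6 lower in SNB19, and 10 higher and 4 lower in U87, with RPL4 at -0.72 and HSPA8 at -0.72.

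Of the 15 genes of nonsense-mediated decay and its exon junction complex, 2 were lower with MEOX2 silenced and none was higher. UPF3B (-0.52 ± 0.11 on the log2 scale, SE, adjusted p = 0.0153) was among those lower, and EIF4A3 had 0.30 (adjusted p = 0.119). In U87, UPF3B (1.11 ± 0.14, adjusted p = 0.000846) and the helicase gene UPF1 (0.89) were higher and UPF3A (-0.46) was lower. Leaving out EV replicate 1, 5 decay genes were higher and 6 lower in SNB19, and 9 higher and 1 lower in U87, where UPF3A no longer passed (-0.24). Among 14 mRNAs known as targets of the pathway, 3 were higher and 2 lower in SNB19. The stress genes DDIT3 (2.64 ± 0.47 on the log2 scale, SE, adjusted p = 0.00642), ATF3 (1.40) and ATF4 (0.88) rose, and the cell cycle inhibitor CDKN1A (-1.41) and the splicing factor gene TRA2B (-0.63) fell. In U87, 4 were higher, ATF3 (2.60 ± 0.18, adjusted p = 4.73e-05), GADD45A (1.84), ATF4 (0.89) and CDKN1A (0.42), and SRSF7 (-0.72) was lower. With EV replicate 1 left out, 5 targets were higher and 6 lower in SNB19, and 10 higher and 2 lower in U87, with ATF4 at 1.52 and SRSF7 at -0.36. Of these, ATF3, ATF4 and DDIT3 are best known as genes of the integrated stress response.

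Paraspeckle and speckle proteins are the partners of NEAT1 and MALAT1. Of 16 paraspeckle genes, 3 were lower and 0 higher in SNB19, with a median of -0.17, and without EV replicate 1 these were 9 lower and 1 higher. PSPC1 (-0.81 ± 0.16 on the log2 scale, SE, adjusted p = 0.0106) and SFPQ (-0.51 ± 0.14, adjusted p = 0.0341) were among those that fell. Of 13 nuclear speckle genes, 4 were lower and 0 higher, with a median of -0.23, and without EV replicate 1 these were 8 lower and 2 higher. The splicing factor gene U2AF2 (-1.31 ± 0.17, adjusted p = 0.00158) fell most, followed by SRSF6 (-0.57), ACIN1 (-0.49) and SRSF1 (-0.39). In U87, RBM14 (-0.82 ± 0.16 on the log2 scale, SE, adjusted p = 0.00620) and SMARCA4 (-0.54) were lower and HNRNPH3 (0.66) and HNRNPK (0.62) higher among the paraspeckle genes, and RNPS1 (-1.16) and SRSF2 (-1.08) were lower among the speckle genes, SRSF3 having -0.64 without passing. Leaving out EV replicate 1 gave 4 higher and 5 lower paraspeckle genes and 1 higher and 5 lower speckle genes in U87, with RBM14 at -0.58, RNPS1 at -0.84 and SRSF2 at -0.45. Of 7 genes tied to NORAD, none passed in SNB19, where PRPF19 had 0.42 ± 0.13 (adjusted p = 0.0674), RBMX -0.25 and KHDRBS1 -0.21. In U87, 1 of the 7 was higher and 0 lower with all libraries, while CDC5L had 0.37 and PUM2 0.45 without passing. Leaving out EV replicate 1, 2 of the 7 were higher and 2 lower in SNB19, and 2 higher and 0 lower in U87. No gene named as a snoRNA or a small Cajal body RNA was in the table, so the hosted RNAs themselves were not analysed here.

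At baseline, lower in NC than in EV were 16 of the 39 coding hosts, 8 of 16 snoRNP genes, 11 of 14 decay targets, 6 of 16 paraspeckle genes, 4 of 15 decay factors, 2 of 13 speckle genes and 1 of 7 NORAD-linked genes. Higher in NC were 0, 1, 0, 2, 3, 4 and 1 in the same order. Of all genes 28.8% were lower and 28.1% higher. The ribosomal protein genes RPS12 (-2.46 ± 0.50 on the log2 scale, SE, adjusted p = 0.00271), RPL23A (-1.72) and RPS20 (-1.98) were lower in NC, as were the decay targets DDIT3 (-4.72 ± 0.52, adjusted p = 6.62e-05), CDKN1A (-2.26) and ATF3 (-1.13). Among the snoRNP genes ZNHIT6 was higher (1.35) and NOLC1 (-0.89) and NOP10 (-1.92) were lower, and among the decay factors UPF3B was higher (0.85) and UPF3A (-1.11) and EIF4A3 (-0.52) were lower. PSPC1 (1.55) and NONO (0.85) were higher and DAZAP1 (-0.96) was lower among the paraspeckle genes, PRPF8 (1.22) and SRRM2 (1.49) were higher and SRSF5 (-0.47) was lower among the speckle genes, and RBMX was lower (-0.51) among the NORAD-linked genes, with PRPF19 at 0.31 not passing. These values were mostly smaller without EV replicate 1, with RPS12 at -0.82, RPL23A at -0.62, RPS20 at -0.41, NOP10 at -0.67, DDIT3 at -3.27, DAZAP1 at -0.61, SRRM2 at 1.00 and PRPF8 at 0.86. In that fit, where 32.5% of all genes were higher and 30.9% lower, 15 coding hosts were higher and 11 lower, 3 and 5 snoRNP genes, 2 and 8 decay targets, 2 and 7 paraspeckle genes, 5 and 6 decay factors, 5 and 2 speckle genes, and 3 and 3 NORAD-linked genes.

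Since strand was not kept, reads from a member cannot be told apart from reads of a gene that overlaps it on the other strand, and 15 of the 30 members share exon sequence with such a gene in GENCODE release 29. GLRX5, which overlaps SNHG10, had a log2 fold change of 0.15 ± 0.19 (SE, adjusted p = 0.658) with MEOX2 silenced and of -0.91 ± 0.23 (SE, adjusted p = 0.0203) with MEOX2 raised, so that it was lower in OE together with SNHG10. Without EV replicate 1 it had 0.15 ± 0.07 (SE, adjusted p = 0.0592) and -0.41 ± 0.10 (SE, adjusted p = 0.00111). SIL1, which overlaps SNHG4, had 0.72 ± 0.38 (SE, adjusted p = 0.246) in SNB19 and -1.17 ± 0.48 (SE, adjusted p = 0.0953) in U87. With EV replicate 1 left out, SIL1 was higher in siMEOX2 together with SNHG4, at 0.73 ± 0.08 (SE, adjusted p = 1.58e-08), and had 0.18 ± 0.14 (SE, adjusted p = 0.335) in U87, where its sign changed. TRNAU1AP, which overlaps SNHG12, had -0.71 ± 0.32 (SE, adjusted p = 0.128) in U87, and 0.06 ± 0.15 (SE, adjusted p = 0.812) without EV replicate 1. Some members also share exon sequence with a gene on the same strand, among them SNHG4 with MATR3, SNHG3 with RCC1 and SNHG20 with SEC14L1. With MEOX2 silenced, the MATR3 entry that was tested had -0.19 ± 0.47 (SE, adjusted p = 0.842). RCC1 had -0.42 ± 0.12 (SE, adjusted p = 0.0396) and SEC14L1 -0.29 ± 0.18 (SE, adjusted p = 0.337). SNHG1, NEAT1 and NORAD have no such neighbour on either strand in that annotation.

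Markers of other cell types moved with the groups in part. The 4 immune markers in the table summed to at most 0.185 FPKM in any library. The 4 endothelial markers summed to between 5.43 and 6.08 FPKM in NC, with PECAM1 the most abundant, and to between 1.47 and 1.62 in siMEOX2. The 4 fibroblast markers summed to 82.5 and 195.7 FPKM in EV, mostly COL1A1, and to 17.7 and 16.1 in OE. The 4 epithelial markers, nearly all KRT18, were between 25.8 and 29.4 FPKM in the SNB19 libraries and at most 0.686 in U87. The 4 neuronal markers lay between 2.45 and 5.36 FPKM in all libraries. The 11 glioma markers summed to between 463.6 and 475.3 FPKM in NC and to between 214.9 and 216.2 in siMEOX2, with VIM the most abundant, and were 852 and 658 in EV and 492 and 461 in OE. Mitochondrial transcripts took between 3.26% and 3.57% of counts in SNB19, 3.03% and 2.97% in EV, and 2.37% and 2.27% in OE. Whether these differences have a part in the members' changes was not tested.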

How the data were processed

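Poly-T selected RNA of 10 libraries was sequenced as paired-end reads of 150 bp. The authors deposited read counts per gene and FPKM values per gene in 1 table; the submitters' processing notes name HISAT2, HTSeq 0.11.2, DESeq2 1.26.0 and GRCh38, and options and annotation release are not given in the sources used here. The table gives no gene lengths. The deposited FPKM values equalled the deposited counts per library total and per 1 length for each gene, within 1% for all 232983 values with a count, and these implied lengths were used. Groups came from the sample titles, because the U87 treatment labels name MEOX2, MEOX3, MEOX4 and MEOX5 in turn.

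Counts were tested with edgeR 4.0.16 (R 4.3.3): TMM scaling, filterByExpr by group (17312 genes kept), 1 quasi-likelihood fit over the 4 groups, and Benjamini-Hochberg adjustment over all genes tested at 0.05. Standard errors are log2 fold change divided by the square root of F. limma 3.58.1 and DESeq2 1.42.0 served as alternatives. The fits were also run on simulated data in which all libraries had the same spread and the same length profile. Those data hold no library like EV replicate 1, so they do not show how the fits behave with it. Member coordinates came from GENCODE release 29 (GRCh38) and start windows from RefSeq. Library totals ranged from 12533775 to 16560324 counts.

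Members and gene lists were chosen with earlier results of these data known. Library values were given for members past the threshold in either MEOX2 comparison, the 5 with the highest mean FPKM, and the 8 past it at baseline with the largest change. From each list, the 3 genes with the smallest adjusted p per comparison were named, plus up to 2 changed over 2-fold, and others where a count was 5 or fewer. Some genes that this rule would name are not reported here.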

Additional observations from a re-analysis of the deposited data

Results flagged for a closer look

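The change with more MEOX2 differed between U87 and SNB19 for 5 of 27 members, with 24.4% of all genes, by the test of that difference itself (edgeR's quasi-likelihood test on all 10 libraries, adjusted over all genes). The difference on the log2 scale was 1.60 for SNHG1, which rose with MEOX2 raised in U87 and also rose with MEOX2 silenced in SNB19. It was 1.25 for NEAT1, which did the same. For NORAD it was 1.26, with NORAD higher in OE and, without passing the test, at 0.46 in siMEOX2. For SNHG12 it was -1.26, with a fall in OE and -0.12 in siMEOX2, and for MALAT1 -0.81, with a fall in siMEOX2 and -0.27 in OE. Delivery differed between the lines together with the direction of the MEOX2 change, and these cannot be told apart. Allowing for gene length in each library, an alternative chosen after seeing the data, the difference for NEAT1 was 0.76 with an adjusted p of 0.0997. Without EV replicate 1 all 5 differences kept their direction and passed, at 1.98, 1.27, 0.93, -0.66 and -0.77. SNHG1 and NEAT1 passed in all 10 fits that left out 1 library, NORAD in 7, MALAT1 in 3 and SNHG12 in 2.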

How the results depend on the processing

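Library totals lay between 12533775 and 16560324 counts. U87 had a pair of libraries per group, and one of these, EV replicate 1, has another length profile. Its part in the results is given in the report. With 1 library left out at a time, the number of members called ranged from 1 to 15 with MEOX2 silenced (5 with all libraries), from 1 to 21 with MEOX2 raised (9), from 9 to 23 at baseline (13) and from 2 to 18 for the difference between the lines (5). The genes called in all ranged from 1148 to 8626 (2725 with all libraries), from 1553 to 10929 (4538), from 8219 to 13539 (9843) and from 2265 to 10435 (4229). The high ends came from leaving out an EV library. Fitting each comparison on its own libraries gave 17 members and 8683 genes with MEOX2 silenced and 0 members and 0 genes with MEOX2 raised. An offset by gene length, chosen after seeing the data, left 3 members with MEOX2 silenced (3531 genes), and library totals without scaling factors left 5 with MEOX2 raised (3793 genes). The study's threshold of a log2 change over 1 with an unadjusted p under 0.05 gave 0 members (1842 genes) and 4 members (3963 genes).

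Same-numbered SNB19 libraries did not deviate together (r of -0.05, -0.10 and 0.14 over 12070 genes), so the numbers were not taken as pairs. With the replicate block, 2 members passed with MEOX2 silenced (972 genes), 2 with MEOX2 raised (2126 genes) and 2 for the difference between the lines (2215 genes). Same-numbered U87 libraries deviated in opposite directions (r of -0.40). The title of OE replicate 1 holds both OE-1 and OE-2, so which OE library shares a number with which EV library is uncertain. With the crossed pairing, chosen after seeing the data, 3 members (1786 genes) and 6 members (3710 genes) passed.

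Signs changed as follows on the log2 scale, for members past the threshold or among the 5 with the highest mean FPKM. With 1 library left out at a time, values with MEOX2 raised ranged from -1.23 to 0.72 for SNHG8 and from -0.30 to 1.02 for GAS5, and the difference between the lines ranged from -0.83 to 1.12 for SNHG8 and from -0.048 to 1.26 for GAS5. At baseline they ranged from -1.98 to 0.086 for ZFAS1, from -0.53 to 0.39 for DANCR, from -1.03 to 0.30 for GAS5, from -0.47 to 0.39 for NORAD and from -1.36 to 1.28 for SNHG19, with the EV libraries at both ends. With the gene-length offset SNHG19 was at -0.10 with MEOX2 silenced, and with the replicate block the difference between the lines for SNHG8 was 0.093. At baseline, DANCR was at 0.30 and NORAD at 0.20 with library totals, SNHG19 at 0.0066 with limma-voom, and DANCR at 0.31, GAS5 at 0.023, NORAD at 0.34 and SNHG19 at 0.34 with limma on log2(FPKM + 1). Over all members, 0 of 26 changed sign without EV replicate 1 with MEOX2 silenced, 9 of 27 with MEOX2 raised, 8 of 27 at baseline and 8 of 27 for the difference between the lines, and of these ZFAS1 at baseline alone had passed with all libraries. Among 117 genes of the partner lists 2, 43 and 34 changed sign in the first 3 of these, and FBL, RPS13 and RBM8A at baseline had passed. The ratio of summed member FPKM, OE over EV, was 0.940, and 1.34 without EV replicate 1. Library totals moved the median gene by 0.14 with MEOX2 raised and by 0.37 at baseline, limma on log2(FPKM + 1) by 0.21 at baseline and upper-quartile scaling and limma-voom by 0.10 each. Where a call was lost, the cause was not tested. DESeq2, limma-voom, RLE factors and the filters on low counts kept each count of members within 1.5 times where they were run.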
